A study of Mus musculus with 8 samples.

Results

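The 43 genes described here act in mitosis and in the step from G2 into mitosis: cyclins and kinases of mitotic entry, the spindle checkpoint, the chromosomal passenger complex, kinetochores, condensin, the spindle and cytokinesis. They were chosen by name from a list of such genes, and a gene was to be kept if it reached 1 FPKM in at least 2 of 8 RNA-seq libraries. FPKM, a number of fragments scaled to transcript length and sequencing depth, is a level per length, so levels may be compared between genes. All 43 had 1 row each in the gene tables and all 43 passed, among 9782 genes that passed of 23746 rows. Of the 43, 41 reached 1 FPKM in all 8 libraries, and Aurka and Anln each fell short in 1.

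The libraries came from CD8+ T cells of BALB/c mice that bound the AH1 tetramer, a reagent that marks T cells specific for the tumour antigen peptide AH1. There were 4 groups of 2 libraries: Cd69-/- term-diff, Cd69-/- stem-like, wild-type term-diff and wild-type stem-like. Cd69-/- cells lack Cd69, a membrane receptor of activated T cells, and stem-like and term diff (written term-diff here) are the names the labels give to the sorted subsets. The Cd69 allele, the tumour, the sort gates, the ages of the mice and how many mice gave each library were not given in the sources used here, so p-values measure the spread between libraries, which may be technical.

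A dividing cell makes these transcripts late in its cycle and removes most of them after division, so their level in a population is commonly read as a sign of how many of its cells cycle. In resting mammalian cells the DREAM complex represses many of these genes through a promoter element called the CHR, and in cycling cells the MuvB core joins B-Myb and Foxm1 to activate the same genes. Among tumour-specific CD8+ T cells, stem-like cells that express Tcf7 are known as a self-renewing reserve, and terminally differentiated cells as their cytotoxic but exhausted progeny. In bulk RNA, fewer cycling cells and less RNA per cycling cell cannot be told apart.

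The labels were checked against genes that define them. Cd69 was at 2.21 and 2.43 FPKM in Cd69-/- term-diff cells and 3.69 and 2.42 in Cd69-/- stem-like cells, against 10.4 and 12.9 in wild-type term-diff and 22.5 and 23.4 in wild-type stem-like cells. The stem-like markers Tcf7, Slamf6, Ccr7 and Il7r were lower, and all 5 markers of the term-diff subset (Havcr2, Entpd1, Gzmb, Prf1, Cd38) higher, in term-diff cells of both genotypes, though whether the sort used any of them was not given. The summed level of 8 CD8+ T cell genes ran from 1028 to 1555 FPKM over the 8 libraries. Of other cell types, myeloid markers summed to 28.8 to 30.4 FPKM in Cd69-/- term-diff, 37.5 to 56.0 in Cd69-/- stem-like, 19.1 to 20.4 in wild-type term-diff and 44.8 to 46.1 in wild-type stem-like cells, mostly through Cst3; of the 7 myeloid genes with a row, Cst3, Cd68 (0.964 to 3.32 FPKM) and Lyz2 (0.260 to 3.11) passed the filter and Csf1r, Itgam, Cd14 and Fcgr3 did not. Tumour and stroma markers summed to 8.60 to 11.7 FPKM in term-diff and 27.8 to 35.1 in stem-like libraries, carried by Pecam1 and Igfbp7. Epcam was at or under 0.715 FPKM, and Krt8, Krt18, Krt19, Col1a1 and Col3a1 were at or under 0.680, in every library. Markers of CD4+ and regulatory T cells, mostly Ctla4, which activated CD8+ T cells also express, summed to 86.2 to 116 FPKM in Cd69-/- term-diff, 116 to 122 in Cd69-/- stem-like, 75.8 to 83.7 in wild-type term-diff and 113 to 117 in wild-type stem-like cells, with 2 of the 4 genes that passed (Il2ra and Ikzf2) called lower in term-diff cells of each genotype and Foxp3 at or under 1.14. Natural killer cell markers, mostly Klre1, summed to 36.7 to 38.0 FPKM in Cd69-/- term-diff, 19.7 to 23.0 in Cd69-/- stem-like, 27.7 to 31.4 in wild-type term-diff and 24.3 to 27.3 in wild-type stem-like cells, with Klre1 called higher and Eomes lower in Cd69-/- term-diff cells and Ncr1 at or under 0.375. The part of these 4 lists in the results was not tested. The confidence intervals deposited with the FPKM implied 2055402 to 2591061 fragments per library, of which 10460 to 21486 fell on the 43 genes, and per gene and library these ran from 9.0 for Aurka to 7845 for Mki67. Small RNAs held 54.6% and 61.3% of the FPKM sum in replicate 2 of wild-type term-diff and of wild-type stem-like, and 76.5% to 83.6% in the other 6 libraries. Of the implied fragments they held only 0.113% to 0.381% over the 8 libraries. Where a small RNA share is named below, it is that of the FPKM sum.

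In wild-type mice, most of the mitotic genes had more RNA in term-diff than in stem-like cells. Differences between groups are given as log2(FPKM + 1) differences with the standard error, from limma over all 9782 genes, and a gene is called when its p-value adjusted by Benjamini and Hochberg over those genes is under 0.05. Of the 43 genes, 24 were called higher in wild-type term-diff cells and 1, Smc4, was called lower. Over all genes, 13.1% were called in this comparison, 7.24% higher and 5.83% lower. The median difference of the 43 was 0.69, beside 0.06 over all genes, and 41 of 43 differences were above 0, beside 57.4% of all genes. In 39 of the 43, both term-diff libraries lay above both stem-like libraries, which 33.4% of all genes did, and in Smc4 and Kif15 both lay below, which 21.8% did. The differences of Prc1 (1.13 ± 0.16), Mki67 (1.09 ± 0.17) and Ckap2l (1.05 ± 0.14) exceeded 1 on the log2 scale. The number of calls rested on having both libraries of each group: it was 9 without wild-type term-diff replicate 1, 6 without term-diff replicate 2, 4 without stem-like replicate 1 and 13 without stem-like replicate 2. Ckap2l, Mki67 and Prc1 were called in each of these 4 fits, and the median difference stayed between 0.62 and 0.72.

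**Figure D1:**
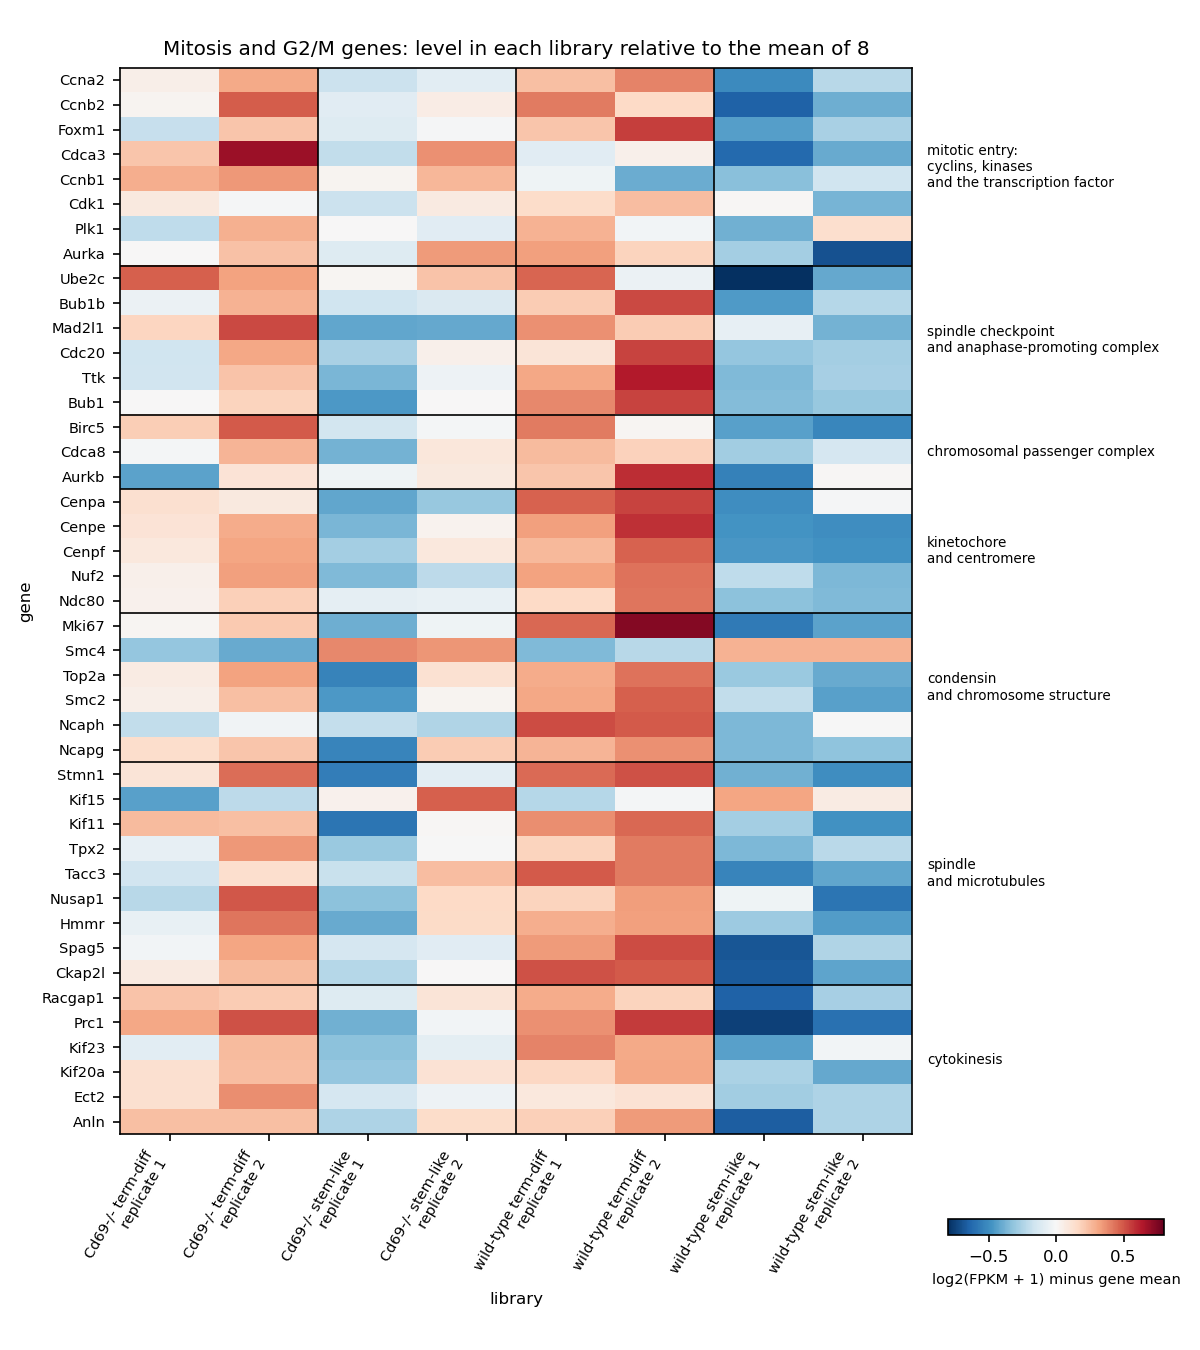
Level of each of the 43 genes (rows, grouped by role) in each of the 8 libraries (columns), as log2(FPKM + 1) minus the gene's mean over the libraries, with red above and blue below that mean. Most rows are red in both wild-type term-diff columns and blue in both wild-type stem-like columns, the Cd69-/- columns are mixed, and Smc4 and Kif15 run the other way.

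In Cd69-/- mice the same subset comparison gave a smaller median difference and fewer calls. Of the 43 genes, 3 were called: Mad2l1 and Prc1 were higher and Smc4 was lower in Cd69-/- term-diff cells. Over all genes, 9.45% were called, 3.88% higher and 5.56% lower, so the share called among the 43 did not exceed that of all genes. In limma 10 of the 43 had an unadjusted p under 0.05, beside 24.7% of all genes, again a share not exceeded. Of these 10, 8 were higher, beside 1029 of all 9782 genes. The median difference of the 43 was 0.28, beside -0.03 over all genes, and 39 of 43 were above 0, beside 45.9% of all genes. Both term-diff libraries lay above both stem-like libraries in 22 of the 43 (24.5% of all genes) and below in Smc4 and Kif15 (32.4% of all genes). The calls rested on single libraries. Without Cd69-/- term-diff replicate 2 or without stem-like replicate 1, none of the 43 was called. Without stem-like replicate 2 all 3 calls were lost and Kif11 and Ncapg were called higher, and without term-diff replicate 1 Mad2l1 and Smc4 were called. The median difference was 0.42 without term-diff replicate 1, 0.15 without term-diff replicate 2, 0.12 without stem-like replicate 1 and 0.41 without stem-like replicate 2. The comparisons in the 2 genotypes share no library, though they share 1 estimate of the spread. Of the 43, 39 genes had a positive difference in both while Smc4 and Kif15 had a negative one in both. The share of all genes with the same sign in both was not counted, so this is a description only.

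The promoters of the genes at the ends of this range are shown because the CHR, bound by the DREAM and MuvB complexes, is the element best known to time this group of genes. RefSeq promoter windows of build GRCm38.p6, from 250 bases before to 50 after the annotated start, were found for 36 of the 43 genes. The CHR was searched as TTTGAA or TTTAAA and the CCAAT box as CCAAT, each on both strands (TTTAAA reads the same on both). Each line gives 110 bases, 5' to 3' on the gene's own strand, with both words in capitals, which appear as TTCAAA and ATTGG where they lie on the opposite strand. Prc1, Ckap2l and Mki67 had the 3 largest differences in wild type, Ube2c had the largest between genotypes in stem-like cells, Ccnb1 hardly differed between wild-type subsets, and Kif15 was lower in term-diff cells. The stretches are chr7:80294366-80294475 (+) for Prc1, chr2:129297213-129297322 (-) for Ckap2l, chr7:135716470-135716579 (-) for Mki67, chr2:164769819-164769928 (+) for Ube2c, chr13:100786487-100786596 (-) for Ccnb1 and chr9:122950971-122951080 (+) for Kif15. All but that of Mki67, which begins 200 bases before the start, end at the base before it.
Prc1: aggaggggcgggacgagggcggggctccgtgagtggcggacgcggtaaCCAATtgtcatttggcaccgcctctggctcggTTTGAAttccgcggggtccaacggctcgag
Ckap2l: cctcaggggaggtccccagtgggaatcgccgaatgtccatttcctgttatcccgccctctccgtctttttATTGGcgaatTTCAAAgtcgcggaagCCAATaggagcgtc
Mki67: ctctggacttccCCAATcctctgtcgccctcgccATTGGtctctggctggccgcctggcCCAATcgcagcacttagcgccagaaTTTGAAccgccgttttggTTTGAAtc
Ube2c: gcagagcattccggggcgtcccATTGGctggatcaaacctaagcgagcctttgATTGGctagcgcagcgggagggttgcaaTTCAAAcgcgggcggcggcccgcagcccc
Ccnb1: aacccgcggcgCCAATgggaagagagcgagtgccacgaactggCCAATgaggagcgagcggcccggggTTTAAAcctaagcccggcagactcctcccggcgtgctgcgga
Kif15: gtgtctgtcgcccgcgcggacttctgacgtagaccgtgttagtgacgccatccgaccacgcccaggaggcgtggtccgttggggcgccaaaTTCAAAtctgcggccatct

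All 6 stretches hold a CHR word, and 5 also hold a CCAAT box, which the Kif15 stretch lacks. Over the windows of the 36 genes, 30 held a CHR word (83.3%), against 22.0% of the 6905 genes tested here that have a window and 30.6% of all 27025 genes with one. A CCAAT box stood in 27 (75%), against 43.6% and 41.1%, and both words in 26 (72.2%), against 10.4% and 13.4%. Of the 48 CHR words in 38 windows (2 genes have more than 1), 36 lay within 50 bases of the annotated start, and of the 68 CCAAT boxes, 66 lay before it. The windows of each of those 2 genes, Ect2 and Prc1, overlap, so these totals count words in the shared part once per window. Among the 21 genes with a window that were called higher in wild-type term-diff cells, 17 had a CHR word and 14 had both words. Among the 15 that were not called these were 13 and 12. Most of the 15 also had a difference above 0, such as Aurka (0.74) and Top2a (0.72). The split by call thus cannot show whether the words go with the size of the difference. No CHR word was found in the windows of Bub1, Mad2l1, Ncaph, Nuf2, Nusap1 and Tacc3, 5 of which had a called subset difference in one genotype or the other. An E2F word (TTTCCCGC, TTTCGCGC, TTTGCCGC or TTTGGCGC) was found in 3 of the 36 windows, those of Cdk1, Ncapg and Kif15 (8.33%, against 5.17% of genes tested and 2.60% of all). A match is a string of letters and not a measured binding site.

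**Figure D2:**
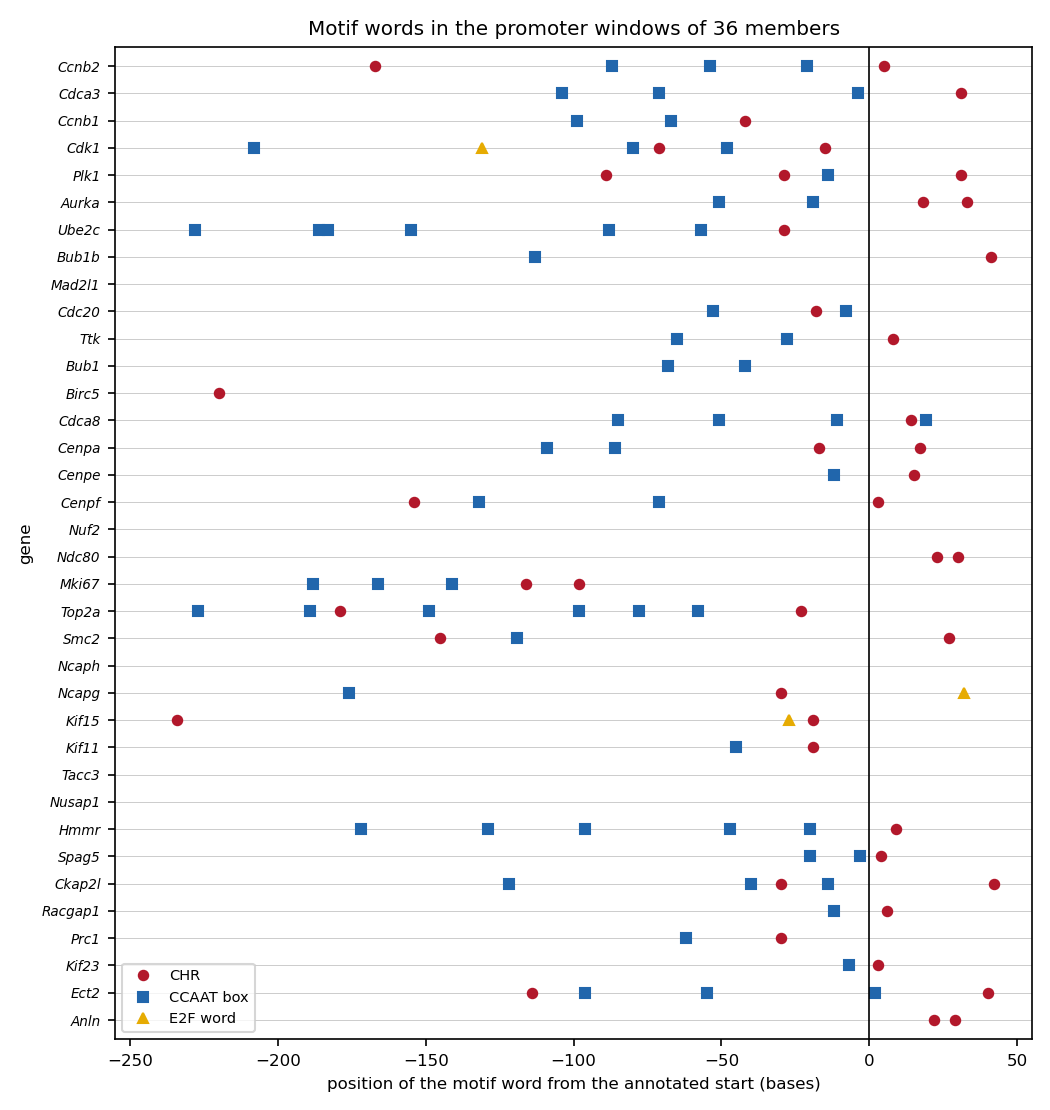
Position of CHR words (red circles), CCAAT boxes (blue squares) and E2F words (yellow triangles) in the promoter windows of the 36 genes that have one, in bases from the annotated start (vertical line). CHR words crowd near the start, and the CCAAT boxes lie upstream of it except for 1 each in Cdca8 and Ect2; where a gene has more than 1 window, 1 is drawn.

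The genes of mitotic entry are cyclins, their kinases and regulators, and 3 of 8 (Ccna2, Ccnb2 and Foxm1) were called higher in wild-type term-diff cells. Ccna2, cyclin A2, was at 10.1 and 12.2 FPKM in Cd69-/- term-diff and 8.51 and 9.09 in Cd69-/- stem-like cells, and at 11.6 and 13.1 in wild-type term-diff and 6.52 and 8.20 in wild-type stem-like cells. Ccnb2, cyclin B2, was at 7.88 and 11.2 FPKM in Cd69-/- term-diff and 7.21 and 8.12 in Cd69-/- stem-like cells, and at 10.7 and 8.78 in wild-type term-diff and 4.59 and 5.69 in wild-type stem-like cells. In Cd69-/- the 2 subsets overlapped for Ccnb2 and lay apart for Ccna2, with differences of 0.27 ± 0.18 (limma adjusted p = 0.409) for Ccnb2 and 0.30 ± 0.15 (adjusted p = 0.247) for Ccna2. Both cyclins were separated between the subsets of wild type, by 0.81 ± 0.18 for Ccnb2 (adjusted p = 0.0245) and 0.68 ± 0.15 for Ccna2 (adjusted p = 0.0199). Foxm1, the transcription factor that drives many of the other genes, had a subset difference of 0.07 ± 0.17 in Cd69-/- (adjusted p = 0.836) and 0.74 ± 0.17 in wild type (adjusted p = 0.0281).

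Ccnb1, cyclin B1 and the partner of Cdk1, did not follow Ccnb2. It was at 5.37 and 5.61 FPKM in Cd69-/- term-diff and 4.29 and 5.25 in Cd69-/- stem-like cells, and at 4.09 and 2.96 in wild-type term-diff and 3.12 and 3.66 in wild-type stem-like cells. The wild-type subsets overlapped (0.03 ± 0.16, 95% confidence interval -0.33 to 0.40, limma adjusted p = 0.915), and the sign of this difference turned under 5 of 18 other settings. Both Cd69-/- libraries lay above both wild-type libraries in each subset, by 0.53 ± 0.16 in term-diff (adjusted p = 0.226) and 0.39 ± 0.16 in stem-like cells (adjusted p = 0.650), neither of which was called. Cdk1 itself, the kinase that starts mitosis, ranged from 2.31 to 4.09 FPKM over the 8 libraries and differed by 0.38 ± 0.16 between the wild-type subsets (adjusted p = 0.170). Plk1, a kinase of entry and exit, overlapped between the subsets of both genotypes at 2.08 to 3.89 FPKM. Aurka, the centrosomal Aurora kinase, was at 1.77 and 2.25 FPKM in Cd69-/- term-diff and 1.57 and 2.50 in Cd69-/- stem-like cells, and at 2.47 and 2.13 in wild-type term-diff and 1.29 and 0.706 in wild-type stem-like cells. Its wild-type difference of 0.74 ± 0.21 just missed the call (adjusted p = 0.0528), on as few as 9.0 implied fragments. Cdca3, a trigger of mitotic entry, was the other gene besides Ccnb1 in this role with both Cd69-/- libraries above both wild-type libraries in term-diff cells (0.48 ± 0.22, adjusted p = 0.346).

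Of the 6 genes of the spindle checkpoint and the anaphase-promoting complex, which hold and then release sister chromatids, 4 were called higher in wild-type term-diff cells: Ube2c, Bub1b, Bub1 and Ttk. Ube2c, the ubiquitin-conjugating enzyme of the anaphase-promoting complex, was at 17.5 and 15.6 FPKM in Cd69-/- term-diff and 12.5 and 14.6 in Cd69-/- stem-like cells, and at 17.4 and 11.9 in wild-type term-diff and 5.43 and 9.03 in wild-type stem-like cells. The wild-type stem-like libraries stood lowest, and the other 6 libraries lay between 11.9 and 17.5 FPKM. Bub1b, the checkpoint protein BubR1, was at 8.38 and 10.7 FPKM in Cd69-/- term-diff and 7.68 and 7.93 in Cd69-/- stem-like cells, and at 10.2 and 13.0 in wild-type term-diff and 6.08 and 7.27 in wild-type stem-like cells. In wild type the differences were 0.94 ± 0.24 for Ube2c (limma adjusted p = 0.0355) and 0.71 ± 0.16 for Bub1b (adjusted p = 0.0259). Bub1 and Ttk, both checkpoint kinases, differed by 0.79 ± 0.18 and 0.78 ± 0.19 in wild type, and Cdc20, the activator of the complex, by 0.61 ± 0.21 without a call.

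Mad2l1, the checkpoint protein that sequesters Cdc20, was the gene of the 43 with the largest positive subset difference in Cd69-/- cells. It was at 5.78 and 7.67 FPKM in Cd69-/- term-diff and 3.51 and 3.53 in Cd69-/- stem-like cells, and at 6.77 and 5.95 in wild-type term-diff and 4.75 and 3.64 in wild-type stem-like cells. Term-diff libraries lay above stem-like libraries in both genotypes. The difference was 0.76 ± 0.16 in Cd69-/- (limma adjusted p = 0.0242) and 0.51 ± 0.16 in wild type (adjusted p = 0.0820). The Cd69-/- call held in 1 of 4 fits that left out a library.

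The chromosomal passenger complex corrects the attachment of chromosomes to the spindle, and of its 3 genes listed, Birc5 was called higher in wild-type term-diff cells. Birc5, survivin, was at 14.1 and 17.6 FPKM in Cd69-/- term-diff and 10.9 and 12.1 in Cd69-/- stem-like cells, and at 16.6 and 12.3 in wild-type term-diff and 8.76 and 8.18 in wild-type stem-like cells. Cdca8, borealin, was at 7.33 and 9.14 FPKM in Cd69-/- term-diff and 5.47 and 7.96 in Cd69-/- stem-like cells, and at 9.03 and 8.56 in wild-type term-diff and 5.94 and 6.66 in wild-type stem-like cells. Aurkb, the kinase of the complex, was at 3.50 and 5.53 FPKM in Cd69-/- term-diff and 4.90 and 5.38 in Cd69-/- stem-like cells, and at 6.06 and 8.13 in wild-type term-diff and 3.17 and 5.10 in wild-type stem-like cells. In Cd69-/- cells only Birc5 of the 3 was separated by subset, by 0.42 ± 0.16 (limma adjusted p = 0.154), and the Aurkb difference was -0.18 ± 0.24 (adjusted p = 0.681). All 3 were separated between the wild-type subsets, by 0.69 ± 0.16 for Birc5 (adjusted p = 0.0290), 0.43 ± 0.17 for Cdca8 (adjusted p = 0.157) and 0.67 ± 0.24 for Aurkb (adjusted p = 0.107).

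All 5 kinetochore and centromere genes were called higher in wild-type term-diff cells. Cenpa, the histone variant that marks centromeres, was at 27.0 and 26.0 FPKM in Cd69-/- term-diff and 18.2 and 19.8 in Cd69-/- stem-like cells, and at 34.5 and 36.2 in wild-type term-diff and 17.2 and 24.5 in wild-type stem-like cells. Cenpe, a kinesin of the kinetochore, was at 8.61 and 9.97 FPKM in Cd69-/- term-diff and 5.91 and 8.11 in Cd69-/- stem-like cells, and at 10.2 and 12.4 in wild-type term-diff and 5.41 and 5.31 in wild-type stem-like cells. Both genes were separated by subset in both genotypes. The differences in Cd69-/- were 0.46 ± 0.16 for Cenpa (limma adjusted p = 0.125) and 0.37 ± 0.16 for Cenpe (adjusted p = 0.205), and those in wild type 0.76 ± 0.16 for Cenpa (adjusted p = 0.0204) and 0.94 ± 0.16 for Cenpe (adjusted p = 0.00814). Cenpf, a large protein of the outer kinetochore, was at 7.94 and 9.46 FPKM in Cd69-/- term-diff and 5.97 and 7.93 in Cd69-/- stem-like cells, and at 9.08 and 10.7 in wild-type term-diff and 5.11 and 5.01 in wild-type stem-like cells. Nuf2, which with Ndc80 forms the complex that grips microtubules, was at 6.89 and 8.63 FPKM in Cd69-/- term-diff and 5.01 and 5.63 in Cd69-/- stem-like cells, and at 8.58 and 9.37 in wild-type term-diff and 5.68 and 4.97 in wild-type stem-like cells. Both were again separated by subset in both genotypes. For Cenpf the difference was 0.29 ± 0.16 in Cd69-/- (adjusted p = 0.294) and 0.84 ± 0.16 in wild type (adjusted p = 0.0110). Nuf2 had 0.47 ± 0.14 in Cd69-/- (adjusted p = 0.0787) and 0.66 ± 0.14 in wild type (adjusted p = 0.0193). Ndc80 had 0.18 ± 0.13 in Cd69-/- (adjusted p = 0.450) and 0.64 ± 0.13 in wild type (adjusted p = 0.0183).

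The genes of condensin and chromosome structure held 3 called rises (Mki67, Ncaph and Smc2) and the single called fall in wild-type term-diff cells. Mki67, the Ki-67 protein that coats mitotic chromosomes and is the standard marker of cycling cells, averaged 58.2 ± 5.7 FPKM in Cd69-/- term-diff and 46.5 ± 8.3 in Cd69-/- stem-like cells, and 81.9 ± 11.3 in wild-type term-diff and 37.7 ± 2.5 in wild-type stem-like cells (SD, n = 2 each). Its libraries held 54.1 and 62.2 FPKM in Cd69-/- term-diff and 40.6 and 52.3 in Cd69-/- stem-like cells, and 73.9 and 89.9 in wild-type term-diff and 35.9 and 39.5 in wild-type stem-like cells. The 4 groups did not overlap: wild-type term-diff lay highest, followed by Cd69-/- term-diff, Cd69-/- stem-like and wild-type stem-like. The subset difference was 0.33 ± 0.17 in Cd69-/- (limma adjusted p = 0.287) and 1.09 ± 0.17 in wild type (adjusted p = 0.00527).

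Smc4, a core ATPase of condensin, ran against nearly all others and at a high level. It was at 41.2 and 38.5 FPKM in Cd69-/- term-diff and 67.3 and 65.9 in Cd69-/- stem-like cells, and at 40.0 and 43.8 in wild-type term-diff and 62.6 and 62.4 in wild-type stem-like cells. Every term-diff library lay below every stem-like library, with a difference of -0.73 ± 0.12 in Cd69-/- (limma adjusted p = 0.00893) and -0.57 ± 0.12 in wild type (adjusted p = 0.0199). The Cd69-/- call was lost in 3 of 4 fits that left out a library, and the wild-type call in all 4. Smc2, its partner in the condensin ring, went the other way, at 11.4 and 13.3 FPKM in Cd69-/- term-diff and 7.76 and 11.2 in Cd69-/- stem-like cells, and at 14.0 and 15.8 in wild-type term-diff and 9.52 and 7.92 in wild-type stem-like cells. Its wild-type difference was 0.71 ± 0.18 (adjusted p = 0.0359). Among other settings, this Smc2 call was lost with median-of-ratios scaling (0.64, limma adjusted p = 0.0655) and quantile normalization (0.62, adjusted p = 0.0704). The wild-type call of Birc5 was lost with the same 2 settings (0.62, adjusted p = 0.0714, and 0.59, adjusted p = 0.0678). That of Ccnb2 was lost with median-of-ratios scaling (0.74, adjusted p = 0.0515). FPKM of Smc4 exceeded that of Smc2 in all 8 libraries, and the gap was wider in stem-like cells. The Smc4 row spans chr3:69004972-69034623 (+ strand, mm10), and in the GENCODE annotation this locus also holds the microRNA genes Mir15b and Mir16-2.

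Ncaph, the subunit that closes the condensin ring, was at 6.09 and 6.96 FPKM in Cd69-/- term-diff and 6.11 and 5.87 in Cd69-/- stem-like cells, and at 10.7 and 10.4 in wild-type term-diff and 5.34 and 7.12 in wild-type stem-like cells. It stood apart in wild-type term-diff cells, and the other 3 groups overlapped. The difference was 0.10 ± 0.14 between the Cd69-/- subsets (limma adjusted p = 0.694) and 0.69 ± 0.14 between those of wild type (adjusted p = 0.0180). Top2a, the topoisomerase that untangles sister chromatids, was separated in wild type at 42.7 and 47.1 FPKM in term-diff and 28.0 and 25.9 in stem-like cells, yet its difference of 0.72 ± 0.21 was not called (adjusted p = 0.0604). In Cd69-/- cells Top2a was at 36.2 and 43.5 FPKM in term-diff and 23.6 and 37.8 in stem-like cells, so that 1 stem-like library reached the term-diff level. Ncapg, another condensin subunit, showed the same layout, with 6.91 and 7.35 FPKM in Cd69-/- term-diff and 3.97 and 7.24 in Cd69-/- stem-like cells.

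**Figure D3:**
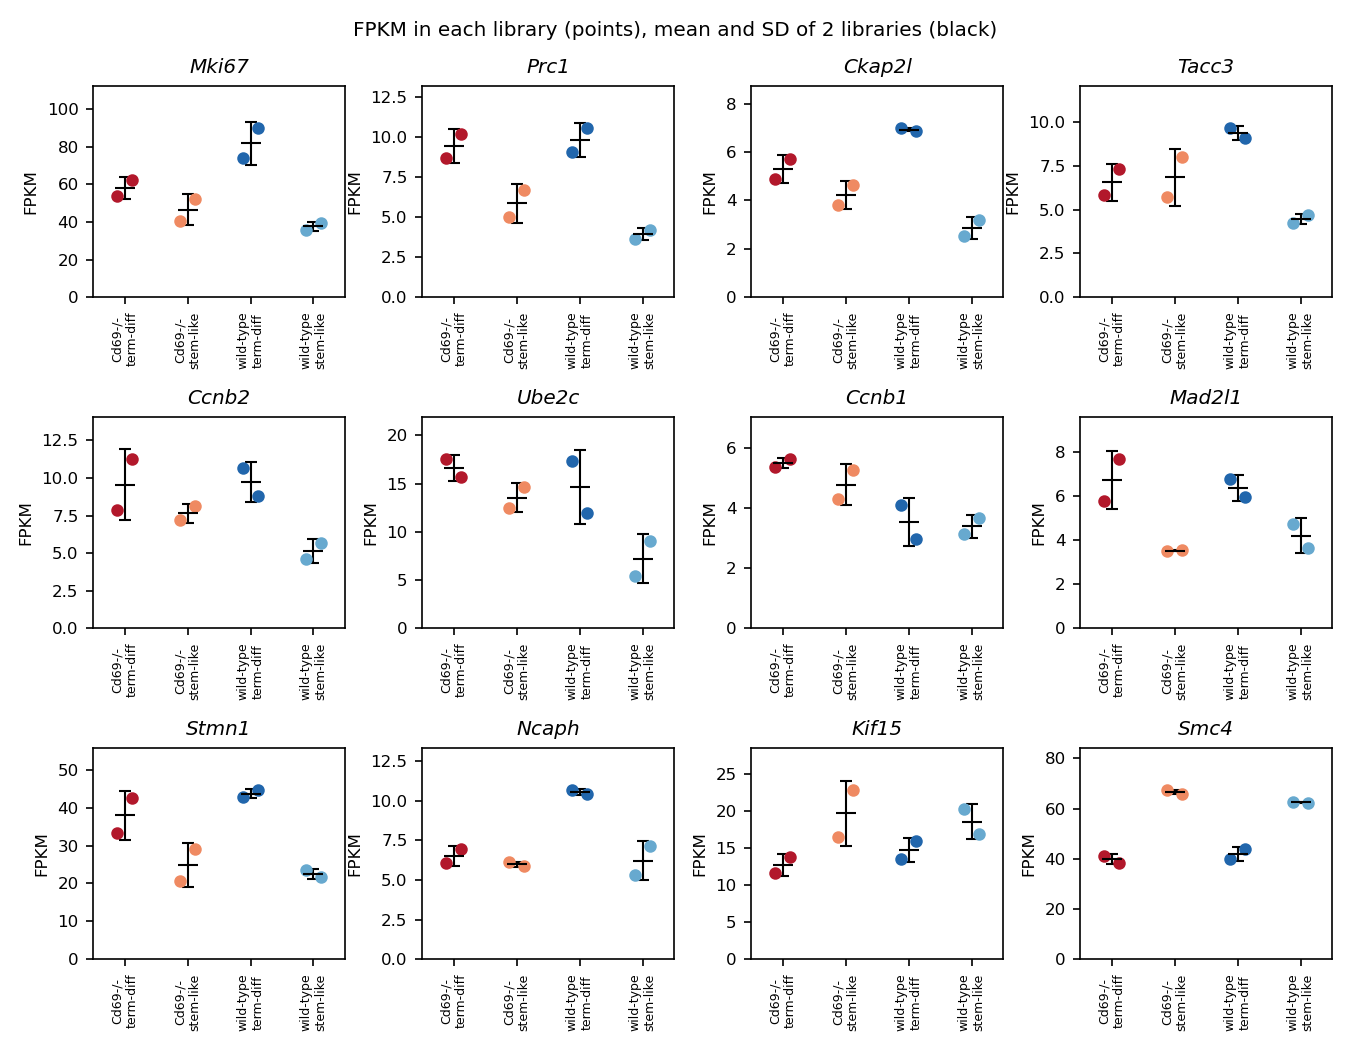
FPKM of 12 of the 43 genes in each library (points) with the mean and SD of the 2 libraries of a group (black), from left to right Cd69-/- term-diff, Cd69-/- stem-like, wild-type term-diff and wild-type stem-like, on linear axes from 0. Mki67, Ckap2l and Tacc3 have their highest levels in wild-type term-diff, Ccnb1 lies higher in both Cd69-/- groups, and Smc4 and Kif15 lie higher in stem-like groups.

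Among 9 genes of the spindle and microtubules, 5 were called higher in wild-type term-diff cells: Ckap2l, Tacc3, Stmn1, Spag5 and Kif11. Ckap2l, a spindle protein, had the smallest p-value of the 43 genes in wild type. It was at 4.89 and 5.69 FPKM in Cd69-/- term-diff and 3.80 and 4.63 in Cd69-/- stem-like cells, and at 6.98 and 6.88 in wild-type term-diff and 2.52 and 3.18 in wild-type stem-like cells, with no overlap between any of the 4 groups. The difference was 0.27 ± 0.14 in Cd69-/- (limma adjusted p = 0.288) and 1.05 ± 0.14 in wild type (adjusted p = 0.00291), where it was called under all 18 other settings. Tacc3, which stabilizes spindle fibres with clathrin, was at 5.83 and 7.32 FPKM in Cd69-/- term-diff and 5.71 and 7.99 in Cd69-/- stem-like cells, and at 9.65 and 9.10 in wild-type term-diff and 4.25 and 4.68 in wild-type stem-like cells. The Cd69-/- subsets overlapped throughout (-0.04 ± 0.17), whereas the wild-type subsets differed by 0.93 ± 0.17 (adjusted p = 0.00976).

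Stmn1, stathmin, which destabilizes microtubules, was at 33.4 and 42.6 FPKM in Cd69-/- term-diff and 20.8 and 29.1 in Cd69-/- stem-like cells, and at 42.8 and 44.6 in wild-type term-diff and 23.5 and 21.7 in wild-type stem-like cells. It was separated by subset in both genotypes, by 0.60 ± 0.18 in Cd69-/- (limma adjusted p = 0.0808) and 0.92 ± 0.18 in wild type (adjusted p = 0.0139). Kif15, a kinesin that helps to keep spindle poles apart, was the gene besides Smc4 that lay lower in term-diff cells. It was at 11.7 and 13.8 FPKM in Cd69-/- term-diff and 16.6 and 22.9 in Cd69-/- stem-like cells, and at 13.6 and 15.9 in wild-type term-diff and 20.3 and 16.9 in wild-type stem-like cells. Its subsets did not overlap in either genotype, but neither difference was called (-0.58 ± 0.18, adjusted p = 0.0858, in Cd69-/- and -0.31 ± 0.18, adjusted p = 0.294, in wild type). Kif11, the kinesin whose task Kif15 can share, went the other way, with 11.8 and 11.7 FPKM in Cd69-/- term-diff and 6.17 and 9.82 in Cd69-/- stem-like cells, and 12.9 and 13.8 in wild-type term-diff and 7.89 and 6.67 in wild-type stem-like cells. The wild-type difference of Kif11 was 0.79 ± 0.19 (adjusted p = 0.0288).

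Of 6 cytokinesis genes, Prc1, Racgap1 and Anln were called higher in wild-type term-diff cells. Prc1, which bundles microtubules of the central spindle, had the largest difference of the 43 in wild type. It was at 8.70 and 10.2 FPKM in Cd69-/- term-diff and 5.01 and 6.72 in Cd69-/- stem-like cells, and at 9.09 and 10.5 in wild-type term-diff and 3.67 and 4.19 in wild-type stem-like cells. Term-diff levels of the 2 genotypes overlapped, and both Cd69-/- stem-like libraries lay above both wild-type ones. The subset difference was 0.61 ± 0.16 in Cd69-/- (limma adjusted p = 0.0488), a call lost in each of 4 fits that left out a library, and 1.13 ± 0.16 in wild type (adjusted p = 0.00318). Racgap1, the GTPase activator of the centralspindlin complex, was at 11.1 and 10.9 FPKM in Cd69-/- term-diff and 8.62 and 10.1 in Cd69-/- stem-like cells, and at 11.7 and 10.7 in wild-type term-diff and 5.60 and 7.60 in wild-type stem-like cells. Its subsets differed by 0.22 ± 0.15 in Cd69-/- (adjusted p = 0.422) and 0.69 ± 0.15 in wild type (adjusted p = 0.0215). Anln, anillin of the contractile ring, differed by 0.72 ± 0.19 in wild type (adjusted p = 0.0423), and Kif23, Kif20a and Ect2 were separated in wild type without a call.

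The loci of 8 genes overlap another protein-coding gene in the GENCODE annotation: Ccna2 with Exosc9, Cdc20 with Elovl1, Foxm1 with Tex52, Kif20a with Cdc23, Ncapg with Lcorl, Nusap1 with Oip5, Prc1 with Rccd1 and Tacc3 with Tmem129. These overlaps are of whole loci, and overlap of exons was not examined. The kit kept strand, but the strand setting used for the FPKM was not given in the sources used here. How far reads of such pairs were mixed is thus not known. Tex52 lies on the same strand as Foxm1, so strand would not separate that pair.

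Between genotypes, no gene of the 43 was called in either subset. In term-diff cells the median difference of Cd69-/- from wild type was -0.17, beside -0.05 over all genes, of which 0.194% were called (0.112% higher and 0.0818% lower), and 6 of 43 differences were above 0, beside 42% of all genes. Both Cd69-/- libraries lay below both wild-type libraries in 17 of the 43 (28.1% of all genes) and above in Ccnb1, Cdca3 and Ect2 (19.7% of all genes). At an unadjusted p under 0.05 in limma there were 7 of the 43, beside 15.1% of all genes; Ccnb1 was higher and 6 were lower, beside 6.26% and 8.88% of all genes. A fit with voom on the implied fragments called 1, beside 3.48% of all genes. Ncaph had the smallest p, at -0.62 ± 0.14 (95% confidence interval -0.95 to -0.29, adjusted p = 0.167), followed by Ccnb1. Mki67 differed by -0.48 ± 0.17 (adjusted p = 0.273), Tacc3 by -0.46 ± 0.17 (adjusted p = 0.282), Cenpa by -0.40 ± 0.16 (adjusted p = 0.305) and Aurkb by -0.57 ± 0.24 (adjusted p = 0.316). Single libraries moved the median. It was -0.05 without Cd69-/- term-diff replicate 1, beside -0.099 over all genes, so there the 43 did not lie below all genes. It was -0.31 without Cd69-/- term-diff replicate 2, beside 0.007 over all genes. With an equal FPKM sum outside small RNA, which moved the median of all genes by -0.11, it was -0.29.

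In stem-like cells the differences pointed upwards in Cd69-/-. The median of the 43 was 0.22, beside 0.06 over all genes, of which 0.153% were called (0.0409% higher and 0.112% lower), and 40 of 43 were above 0, beside 62.5% of all genes. Both Cd69-/- libraries lay above both wild-type libraries in 22 of the 43 (26.3% of all genes) and below in Mad2l1 (11.5% of all genes). At an unadjusted p under 0.05 in limma there were 11 of the 43, all higher, beside 7.26% of all genes and 4.74% higher. A fit with voom called 0, beside 0.44% of all genes. Ube2c had the largest difference, 0.85 ± 0.24 (95% confidence interval 0.31 to 1.39, adjusted p = 0.434). The next smallest p-values belonged to Tacc3 (0.51 ± 0.17), Ckap2l (0.44 ± 0.14), Racgap1 (0.45 ± 0.15), Prc1 (0.47 ± 0.16) and Aurka (0.60 ± 0.21), at adjusted p-values from 0.553 to 0.571. These values rested on Cd69-/- stem-like replicate 2: without it the median was 0.11 and 26 of 43 were above 0, whereas without Cd69-/- stem-like replicate 1 the median was 0.35.

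The test of whether the subset difference itself differed between the genotypes called no gene of the 43, and 0.0307% of all genes (0.0204% above 0 and 0.0102% below). The difference in Cd69-/- minus that in wild type was below 0 in 41 of 43, with a median of -0.37, beside -0.10 over all genes, of which 36.9% were above 0. Mad2l1 and Ccnb1 were the 2 above 0. At an unadjusted p under 0.05 in limma there were 12 of the 43, all below 0, beside 9.09% of all genes and 6.36% below 0. A fit with voom called 0 of the 43 and 0 of all genes. Tacc3 had -0.97 ± 0.24 (95% confidence interval -1.51 to -0.43), Ckap2l -0.77 ± 0.20 (interval -1.24 to -0.31) and Mki67 -0.77 ± 0.24 (interval -1.32 to -0.21), with adjusted p-values of 0.539, 0.539 and 0.542. The median was -0.58 without Cd69-/- stem-like replicate 1 and -0.23 without Cd69-/- stem-like replicate 2. With median-of-ratios scaling the median was -0.26 and 40 of 43 were below 0.

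**Figure D4:**
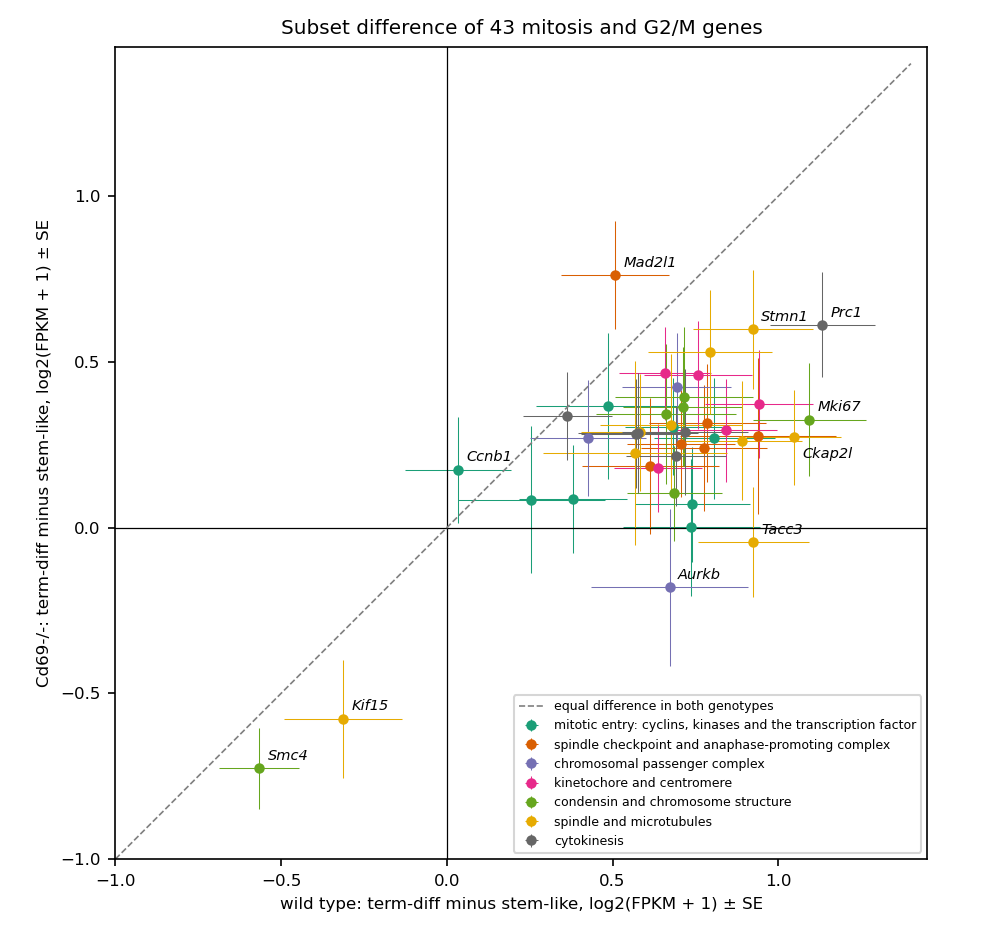
Term-diff minus stem-like difference in log2(FPKM + 1) of each of the 43 genes, in Cd69-/- (y axis) and wild type (x axis), with standard errors and colours by role, and a dashed line where both genotypes would be equal. All points but Mad2l1 and Ccnb1 lie below the line, and Smc4 and Kif15 are the 2 with negative values on both axes.

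The order of the 4 group means was shared by most of the genes. In 29 of 43 (67.4%) wild-type term-diff was highest, followed by Cd69-/- term-diff, Cd69-/- stem-like and wild-type stem-like, an order that 1021 of the 9782 genes (10.4%) had, although neighbouring groups in it often overlapped. In 6 genes (Cenpe, Ckap2l, Foxm1, Mki67, Spag5 and Tacc3) both Cd69-/- libraries lay above both wild-type libraries in stem-like cells and below both in term-diff cells, a layout that 6.27% of all genes had. This order was noticed in the data and is given as a description.

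The 2 libraries of a Cd69-/- group differed from each other about as much as its 2 subsets did. In Cd69-/- term-diff cells 36 of the 43 genes were higher in replicate 2 than in replicate 1, with a median of 0.25, and in Cd69-/- stem-like cells 40 of 43 were, with a median of 0.30. Over all genes, 29.8% and 52.8% were higher in replicate 2 of these groups. In wild type the medians were 0.13 in term-diff and 0.09 in stem-like cells, with 30 and 26 of 43 higher in replicate 2, beside 58.3% and 63.2% of all genes. The median log2(FPKM + 1) of the 43 genes was 2.83 and 3.27 for Cd69-/- term-diff, 2.59 and 2.95 for Cd69-/- stem-like, 3.26 and 3.29 for wild-type term-diff and 2.48 and 2.58 for wild-type stem-like. The second Cd69-/- stem-like library thus exceeded the first Cd69-/- term-diff library, while both wild-type term-diff libraries exceeded both wild-type stem-like ones.

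Other genes of the cell cycle were set beside these 43. Of 71 further mitosis genes, 65 passed the filter, and in wild type 30 were called higher and 0 lower in term-diff cells, with a median difference of 0.58. Of all genes, 7.24% were called higher and 5.83% lower there. The smallest p-values there belonged to Lmnb1, a lamin of the nuclear envelope (0.88 ± 0.12), Kif22, a chromosome-arm kinesin (1.21 ± 0.18), Ncapd2 of condensin (0.93 ± 0.15) and Kif4, a chromosome kinesin (0.78 ± 0.12), at limma adjusted p-values from 0.00298 to 0.00572. In Cd69-/- 2 of the 65 were called, Cks1b, a partner of cyclin-dependent kinases (0.95 ± 0.18, adjusted p = 0.0155), and Spc24 of the Ndc80 complex (0.66 ± 0.13, adjusted p = 0.0197), with a median of 0.18. This did not exceed the 9.45% of all genes called there. An unadjusted limma p under 0.05 was found for 12 of the 65, which did not exceed the 24.7% of all genes either. Of 49 genes of DNA replication and S phase, 0 were called in Cd69-/- and 27 were called higher in wild-type term-diff cells, with medians of 0.22 in Cd69-/- and 0.64 in wild type; 10 of the 49 had an unadjusted limma p under 0.05 in Cd69-/-, beside 24.7% of all genes, a share that the list did not exceed. Clspn, of the replication checkpoint (1.11 ± 0.14), Dnmt1, the maintenance DNA methyltransferase (0.97 ± 0.14), Chaf1a, a histone chaperone (1.02 ± 0.14), and Mcm4, of the replicative helicase (0.84 ± 0.12), led in wild type. Between genotypes none of these genes was called, and the S phase median was -0.32 in term-diff and 0.09 in stem-like cells, beside -0.17 and 0.22 for the 43.

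Regulators of the G1 phase, which act before DNA replication, held calls in both directions and leaned upwards in wild-type term-diff cells. Of 21 that passed the filter, 2 were called higher and 1 lower in Cd69-/- term-diff cells, beside 3.88% and 5.56% of all genes. In wild-type ones 5 were called higher and 1 lower, beside 7.24% and 5.83%. The median was 0.08 in Cd69-/- and 0.40 in wild type, beside -0.03 and 0.06 over all genes. Differences above 0 numbered 11 of 21 in Cd69-/- (45.9% of all genes) and 15 of 21 in wild type (57.4%). Cdk6, a kinase of G1, had 1.21 ± 0.20 in Cd69-/- (limma adjusted p = 0.00844) and 2.02 ± 0.20 in wild type (adjusted p = 0.000658). Ccnd2, cyclin D2, fell by 1.11 on the log2 scale in Cd69-/- term-diff cells (SE 0.11, adjusted p = 0.00101), where Ccnd3, cyclin D3, rose by 0.70 ± 0.13 (adjusted p = 0.0121), and Cdkn2d, an inhibitor of Cdk4 and Cdk6, fell by 1.22 in wild-type term-diff cells (SE 0.26, adjusted p = 0.0188). These 3 are given in the genotype where their p-values were among the smallest of the list. The interaction called 0 of the 21 (Ccnd2 -0.73 ± 0.16, limma adjusted p = 0.539), so no difference between genotypes is claimed for them. Of 11 genes of the DREAM and MuvB complexes, 3 were called higher in wild-type term-diff cells, beside 7.24% of all genes. They were Lin54, which binds the CHR (1.05 ± 0.13, adjusted p = 0.00201), and the pocket proteins Rbl2 (0.87 ± 0.14, adjusted p = 0.00672) and Rbl1 (0.62 ± 0.16, adjusted p = 0.0361). Rbl2 was also called in Cd69-/- (0.62 ± 0.14, adjusted p = 0.0336).

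**Figure D5:**
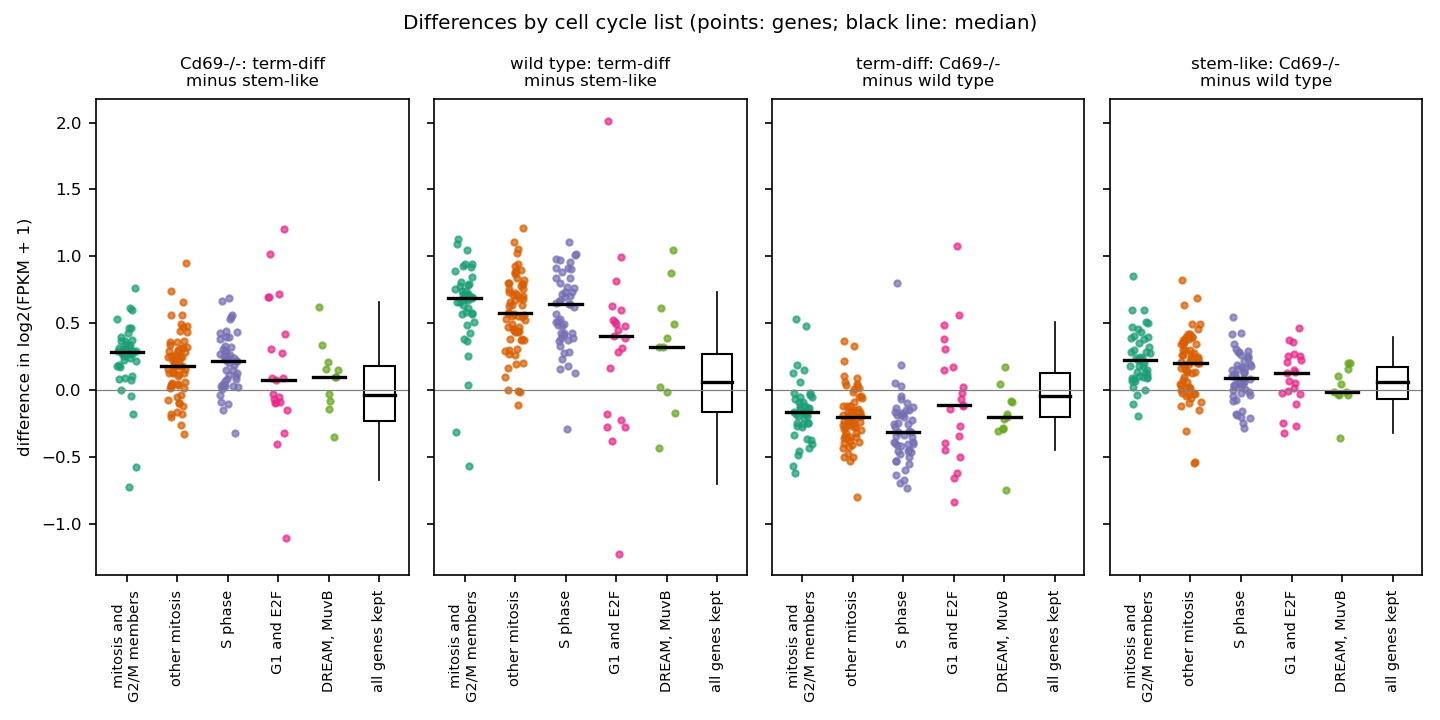
Differences in log2(FPKM + 1) of single genes (points) and their median (black line) for the 43 genes and 4 other cell cycle lists, beside all 9782 genes (box from the 25th to the 75th percentile, whiskers to the 5th and 95th), in 4 comparisons. Medians of the 43 genes, the other mitosis genes and the S phase genes are 0.28, 0.18 and 0.22 in Cd69-/- and 0.69, 0.58 and 0.64 in wild type.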

How the data were processed

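RNA-seq gene tables of 8 libraries were used as deposited. Per the labels, a stranded kit for low input was used on total RNA, and a NextSeq500 gave single-end reads. Cufflinks 2.2.1, TopHat 1.3.2, Bowtie2 2.3.4, bcl2fastq 2.20 and build mm10 are named in the submitters' processing notes. Per the file headers, the authors deposited FPKM per gene with confidence limits and a status. The annotation and strand setting are not given in the sources used here. Implied fragments are the square of 2 times the FPKM over the distance to the upper limit, and 63.6% to 65.5% of rows under 15 lay within 0.05 of a whole number, so they are approximate and cover counting error only.

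Rows of status OK that reached 1 FPKM or more in 2 or more libraries were fitted as log2(FPKM + 1), which understates changes of low genes, with limma 3.58.1 in R 4.3.3 (4 group means, trended empirical Bayes, 4 residual and 4.2 prior degrees of freedom, 2-sided, 5 comparisons), and the script was tested on simulated data. Library values were given for the 2 highest genes of each role, the 6 smallest p-values of each pairwise comparison and 3 of the interaction, and other genes named were chosen after their values were seen. The genes and lists were chosen with earlier results of these data known. Promoters are RefSeq windows; overlaps are from GENCODE M21. Alternatives changed the pseudocount, filter, scaling, model, unit or libraries.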

Additional observations from a re-analysis of the deposited data

How the results depend on the processing

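Measured from 0, the median differences of the 43 genes kept their sign in all 5 comparisons under every setting run. Measured from the median of all genes, which moved too, this did not hold throughout. Without Cd69-/- term-diff replicate 1 the genotype median of the 43 in term-diff cells was -0.05, above the -0.099 of all genes. Genotype comparisons and the interaction gave no calls except 1 with voom in term-diff cells. Counts of calls were less stable, and the cause was not tested. In wild type the 25 calls became 4 with no filter on low values, 3 without both wild-type replicate 2 libraries, whose small RNA share was lower (a setting chosen after seeing the data), and 4 to 13 when 1 library was left out; other settings gave 17 to 32. The median there was 0.42 with a pseudocount of 5. In Cd69-/- the 3 calls became 1 with no filter, 5 with a robust fit, 10 with voom on implied fragments and 0 to 2 when 1 library was left out. The interaction median was -0.58 to -0.23 when 1 library was left out. Over all genes, the 924 calls in Cd69-/- became 501 with no filter and 1634 with voom, and the 1278 in wild type became 638 with no filter, 756 with only the groups compared and 325 without those 2 libraries. The 19 calls of the genotype comparison in term-diff cells became 3 to 340, the 15 in stem-like cells 5 to 43 and the 3 of the interaction 0 to 105. With equal sums outside small RNA, the 380 higher and 544 lower calls in Cd69-/- became 260 higher and 594 lower. With 1 library left in a group, that library is assumed to vary like the others.

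Replicate numbers are shared by all groups in the labels, which do not say that they pair libraries. Deviations of same-numbered libraries from their group means correlated across genes at -0.30 to 0.15 between groups, so the numbers were not taken as pairs. A correlation over all genes does not show whether the 43 genes shared a replicate difference. Of the 43, 36 and 40 were higher in replicate 2 of Cd69-/- term-diff and stem-like. In wild-type term-diff and stem-like these were 30 and 26. With the replicate number as a block, 3 of the 43 genes were called in Cd69-/- and 27 in wild type, with medians of 0.28 and 0.69, and 0 in the genotype comparisons and the interaction, whose medians were -0.17, 0.22 and -0.37.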
